A study of Mus musculus with 62 samples.

Results

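The genes encoding the translation initiation factors were followed in soleus, a slow postural muscle of the hind limb, during melanoma-induced cachexia. Members were taken by symbol alone: every row whose mouse symbol begins with Eif and a digit from 1 to 6, with the eIF2 kinases (Eif2ak) and the eIF4E inhibitors (Eif4ebp) included and pseudogenes left out. The rule found 56 of the 47643 genes in the table. GENCODE M21, an annotation of mm10, the build named in the submitters' processing notes, places all 56 on 20 chromosomes and lists 55 as protein coding. The other, Eif2c5, carries the older name of an Argonaute gene and is a member by symbol only. A gene was tested when it reached at least 1 TPM (TPM is the length-corrected share of a library's transcripts, scaled to a fixed total) in at least 5 of the 62 libraries, which 53 members did. Those that did not, 3 in all, were Eif2s3y, listed at 0 in 58 libraries and at most at 0.263 TPM, Eif4e1b, listed at 0 in 54, and Eif2c5, listed at 0 in 61.

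The labels describe female mice, 2 months old, in 3 treatments: CAC mice carried melanoma cells that cause cachexia, NCAC mice carried melanoma cells that do not, and Con mice had a mock injection. Soleus was sampled at 2, 4, 6 and 8 weeks, which gives 12 groups, each of 5 libraries except CAC at 8 weeks, with 7. Libraries of 1 group are biological replicates by their labels. The strain reads C57BL6/J in the sample entries and athymic nude in the design text, so it, and with it what immune cells the hosts had, is not settled here. The cell lines behind the 2 kinds of tumour are not named, so each kind stands for the cells used. A protocol entry also mentions LLC cells, a lung carcinoma line, and how that entry applies to these groups is not settled.

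Translation initiation brings a ribosome to the start codon of an mRNA. eIF4E binds the cap at the 5′ end of the mRNA, eIF4G and the helicase eIF4A join it to form eIF4F, and eIF3 links that complex to the small ribosomal subunit, which already carries eIF1, eIF1A, eIF5 and the initiator tRNA held by eIF2. The main brakes act on eIF4E, which 4E-BP proteins sequester unless the kinase mTORC1 phosphorylates them, and on eIF2, which 4 stress kinases phosphorylate so that its exchange factor eIF2B can no longer recharge it. In muscle both brakes are known for their place in the balance of protein gain and loss. Phosphorylation is not visible in RNA, so all values below are transcript levels.

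Many mRNAs of the translation machinery begin with an uninterrupted run of C and T at the start site, the 5′ terminal oligopyrimidine tract through which mTORC1 and the 4E-BPs are known to control their translation. RefSeq start sites (GRCm38.p6) were held for 44 members, with 57 windows of 30 bases centred on a start site, and 12 of the windows (21.1%) held a run of at least 8 C or T, against 12% of 32851 windows of all genes. The search read the coding strand only and counted a run anywhere in the window, also one that ends upstream of the start site. The run at the downstream Eif4e site is of that kind, starting at -12 from it. These shares are therefore not shares of mRNAs that begin with such a tract, and their difference was not tested. The members with a run include Eif2c5 and Eif2s3y, which were too low to test, and Eif4enif1 gave more than 1 of the windows. These windows are printed 5′ to 3′, with the longest run in capitals. They show the longest run among eIF3 subunits (Eif3f, plus strand of chr7:108934400-108934429), the other eIF3 subunit with such a run (Eif3l, plus strand of chr15:79075208-79075237), the eIF2B subunit Eif2b5 (plus strand of chr16:20498802-20498831) and both start sites of Eif4e, the upstream one (plus strand of chr3:138526176-138526205), whose longest run is 2 bases, and the downstream one (plus strand of chr3:138527253-138527282), whose run of 10 puts Eif4e among the 10 members with a run.
Eif3f: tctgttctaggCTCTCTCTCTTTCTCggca
Eif3l: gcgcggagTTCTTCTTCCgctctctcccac
Eif2b5: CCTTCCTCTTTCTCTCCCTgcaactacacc
Eif4e, upstream: tgCTaaaacagcagcggaggcggagggagc
Eif4e, downstream: tcgCCCCCCCTTCaggagcggttgtgcgat
The run in Eif3f spans 15 bases and crosses the start site, and that in Eif2b5 spans 19. A run is a description of these letters, and no binding or translation was measured.

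TPM adds to the same total in every library, so the depth of a library is unknown, a value is a share of the RNA measured, and no counting interval can be given. In the mock mice at 6 weeks 39.8% ± 1.02 (SD, n = 5) of the TPM came from the mitochondrial genome, against 33.1% ± 5.23 (SD, n = 5) in CAC at 6 weeks and 28.7% ± 5.97 (SD, n = 5) in the mock mice at 8 weeks, and a smaller mitochondrial share leaves more of the total to all other genes. Each comparison was also repeated after rescaling the libraries to a common median ratio, which shifted the median log2 fold change of all tested genes by -0.15 in CAC against Con at 6 weeks, -0.15 in CAC against NCAC at 6 weeks, -0.17 in CAC against NCAC at 8 weeks, 0.15 in NCAC against Con at 8 weeks and -0.32 in Con at 8 against 6 weeks. Libraries of week 8 stood apart in all 3 treatments: the summed level of 13 macrophage markers was 140.0 to 172 TPM in Con at 6 weeks and 1247 to 2432 TPM in Con at 8 weeks. All 12 muscle fibre markers were found at every week. In bulk RNA, fewer cells of a type and less RNA per cell cannot be told apart.

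In the mock mice at 2, 4 and 6 weeks the members differed widely in abundance. Eif1, whose product proofreads start codons, had the highest median of the 15 libraries, at 467 TPM, followed by the eIF3 subunit Eif3h at 264 TPM, Eif5a at 262 TPM and Eif4g2 at 259.8 TPM. The 4E-BPs were unequal: Eif4ebp1 stood at 102 TPM, Eif4ebp2 at 81.2 TPM and Eif4ebp3 at 0.689 TPM, the lowest of the 53. Eif4e itself stood at 35.5 TPM, below both of the abundant inhibitors. The eIF2 kinases were scarce, from 12.8 TPM for Eif2ak1 (HRI, which senses heme) down to 3.13 TPM for Eif2ak4 (GCN2, which senses uncharged tRNA).

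At 2 weeks no member passed the test (limma on log2(TPM + 1), Benjamini-Hochberg adjusted p under 0.05) in any of the 3 comparisons. CAC against Con and CAC against NCAC share the CAC libraries of each week, so they are 2 views of the same samples and not independent. In CAC against Con 0 of 53 members passed limma (19 at an unadjusted p under 0.05), where 0% of all 13529 genes passed in either direction and 1315 had an unadjusted p under 0.05. CAC against NCAC gave 0 members (30 at an unadjusted p under 0.05, limma) beside 0.399% of all genes called higher and 0.103% lower, with 2664 genes at an unadjusted p under 0.05, and NCAC against Con gave 0 (3 unadjusted) beside 0.00739% higher and 0% lower, with 1538 genes unadjusted. Leaving out NCAC replicate 2 brought 2 members past the threshold in CAC against NCAC. The members' median log2 fold change in CAC against Con was 0.12, beside 0.06 over all genes.

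At 4 weeks the first differences passed. In CAC against Con 2 members were called higher, Eif1a and Eif4ebp3, and none lower (25 had an unadjusted p under 0.05, limma), beside 0.902% of all genes higher and 0.133% lower. In CAC against NCAC 12 were called higher and 0 lower, beside 5.11% and 0.732% of all genes. Both counts depended on single settings and libraries. The 2 calls against Con became 0 with a pseudocount of 0.1, without the filter on low values, in a fit of all 62 libraries, in a fit of the 2 groups alone and with quality weights. Leaving out any one of the Con libraries, NCAC replicate 2, 3 or 5, or CAC replicate 2, 3 or 4 also gave 0, leaving out NCAC replicate 1 or 4 gave 1, and leaving out CAC replicate 5 gave 17. The 12 calls against NCAC ranged from 0, without NCAC replicate 1 or CAC replicate 4, to 27, without CAC replicate 5. Their number fell to 5 without any one Con library or without CAC replicate 3, and to 3 without NCAC replicate 4 or CAC replicate 2. It fell to 2 without NCAC replicate 3 and to 1 without NCAC replicate 2. The numbers of all genes called in these fits are not given, so the changes are not a result about the members alone. NCAC against Con gave 0 members (0 at an unadjusted p under 0.05, limma), beside 0% of all genes higher and 0.00739% lower.

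At 6 weeks 26 members had risen against the mock mice and 29 against NCAC, on the scale as deposited. In CAC against Con 26 of 53 were called higher and 0 lower (limma), beside 23.5% of all genes higher and 3.87% lower, and the members' median log2 fold change was 0.31, beside 0.16 over all genes. In CAC against NCAC 29 were called higher and 0 lower, beside 27.8% and 4.86% of all genes. NCAC against Con gave 0 (0 at an unadjusted p under 0.05), beside 0% of all genes in each direction. Most of these calls were lost after rescaling: on rescaled values 6 members were called higher and 1 lower against Con, and 10 higher and 2 lower against NCAC, with all genes then split 11.3% higher and 11.2% lower against Con and 14.7% and 13.5% against NCAC. The members' median against Con was 0.13 after rescaling, beside 0.01 over all genes. Of the 26, Eif1a, Eif4ebp1, Eif4ebp3, Eif3b, Eif3c and Eif4g2 passed under every alternative tried and in all 15 fits that left out 1 library. The count of 26 was 12 when CAC replicate 1 was left out, 15 when it was CAC replicate 4, 17 for Con replicate 2 and 42 for CAC replicate 5, and the count of 29 was 17 when CAC replicate 1 was left out, 18 for CAC replicate 4 and 19 for NCAC replicate 1. The numbers of all genes called in these fits are not given, so the changes are not a result about the members alone.

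At 8 weeks 9 members were called higher in CAC against Con and 0 lower (limma), beside 6.31% of all genes higher and 4.26% lower, with a median of 0.25 over the members and 0.00 over all genes. In CAC against NCAC 23 were called higher and 0 lower, beside 19.3% and 2.68% of all genes. NCAC against Con gave 0 (5 at an unadjusted p under 0.05, limma), beside 0% in each direction. With quality weights 7 members were called lower in NCAC against Con, beside 2284 of all genes called, and in the fit of all 62 libraries 1 lower, beside 175. Rescaled values left 4 of the 9, beside 6.25% of all genes higher and 6.39% lower on that scale, and 4 of the 23, beside 5.33% and 5.63%. A fit that shares its spread over all 62 libraries called 30 members against Con (29 higher, 1 lower), beside 4206 of all genes. It called 40 against NCAC, beside 5837. Quality weights called 26 against Con, beside 3384. In the fit as reported 1430 of all genes were called against Con and 2968 against NCAC, so the background rose with the members. The count of 9 was 2 without Con replicate 1 or 4, 3 without Con replicate 3, 4 without Con replicate 5 or CAC replicate 1 or 2, 5 without Con replicate 2 or CAC replicate 4, and 14 without CAC replicate 3. As at 6 weeks, the numbers of all genes called in these fits are not given. Of the 26 members called against Con at 6 weeks and the 9 at 8 weeks, in separate libraries, 6 were the same (23.1% of the first and 66.7% of the second): Eif1a, Eif2b5, Eif3j1, Eif3j2, Eif4ebp3 and Eif5b. At 6 weeks 49.1% of all 53 members were called, so much of such sharing can arise without a link between the weeks. The overlap over all genes was not counted.

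**Figure D1:**
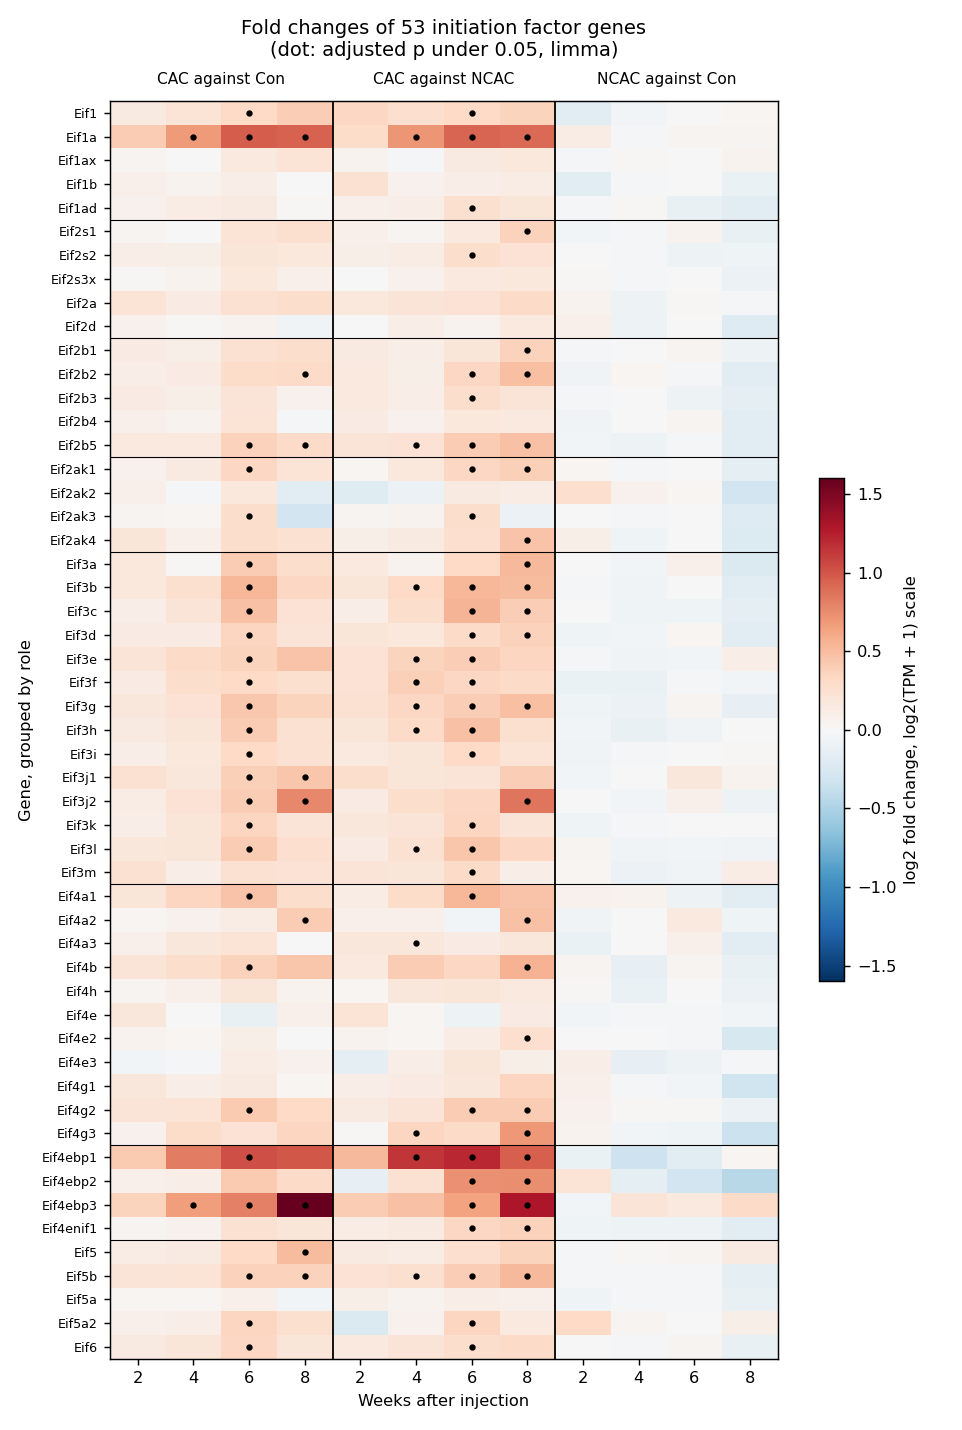
Colour shows the log2 fold change, on the log2(TPM + 1) scale, of the 53 tested members (rows, grouped by role) in the 12 comparisons between treatments of the same week (columns, by weeks after injection). Black dots mark an adjusted p under 0.05 (limma): 26 members against Con at 6 weeks and 9 at 8 weeks, and none in NCAC against Con.

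The 4E-BPs, which bind eIF4E and keep it from eIF4G, held the largest log2 fold change of any member against Con at 4, 6 and 8 weeks. Eif4ebp1, a gene on the plus strand of chr8:27260329-27276674, was at 116, 102, 94.5, 93.0 and 94.3 TPM in the 5 Con libraries of week 6 and at 85.9, 92.7, 93.5, 77.0 and 92.1 TPM in the NCAC libraries. In CAC at 6 weeks it was at 312, 213, 128, 267 and 159 TPM. Every CAC library lay above every Con and NCAC library, but the CAC libraries differed among themselves by more than the other 10 did. CAC differed by 1.03 ± 0.18 in log2 against Con (SE; adjusted p = 0.000906) and 1.21 ± 0.18 (SE; adjusted p = 0.000177) against NCAC (limma), and 0.85 against Con on rescaled values.

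Eif4ebp1 at the other weeks is given next. At 4 weeks CAC libraries were at 137, 373, 199, 226 and 120.2 TPM, Con libraries at 120.2, 94.3, 107, 125 and 106 TPM and NCAC libraries at 81.4, 77.0, 87.1, 112 and 81.9 TPM. The CAC libraries overlapped those of Con and lay above those of NCAC, with 0.82 ± 0.23 (SE; adjusted p = 0.0908) against Con, which missed the threshold, and 1.15 ± 0.23 (SE; adjusted p = 0.0202) against NCAC (limma). The call against NCAC did not survive leaving out NCAC replicate 1, NCAC replicate 2 or CAC replicate 4. At 8 weeks CAC was at 147 TPM in the lowest, 284 in the median and 539 in the highest of 7 libraries, Con at 97.9, 197, 165, 133 and 193 TPM and NCAC at 192, 90.7, 209.6, 179 and 142 TPM. The groups overlapped. At 8 weeks the log2 fold change was 1.00 ± 0.31 (SE; adjusted p = 0.050044) against Con, just outside the threshold, and 0.96 ± 0.31 (SE; adjusted p = 0.0367) against NCAC (limma), a call that 5 of 8 alternatives lost and that also depended on NCAC replicates 2, 4 and 5 and CAC replicates 1, 2, 4 and 6, each of whose removal ended it.

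Eif4ebp3, the rarest of the inhibitors and a gene of chromosome 18, was measured at a much lower level. At 8 weeks it was at 2.26 TPM in the lowest, 5.38 in the median and 11.3 in the highest of 7 libraries in CAC. The Con libraries of that week were at 0.260, 1.99, 0.564, 1.45 and 2.83 TPM and the NCAC libraries at 1.15, 1.61, 1.77, 2.97 and 1.57 TPM. One CAC library, replicate 3, fell within the range of the other groups. The log2 fold change, which the pseudocount of 1 shrinks at this level, was 1.59 ± 0.30 (SE; adjusted p = 0.00455) against Con and 1.29 ± 0.30 (SE; adjusted p = 0.00781) against NCAC (limma), kept in all 8 alternatives and all 17 fits without 1 library. At 6 weeks it was at 2.80, 1.16, 1.90, 2.72 and 1.33 TPM in CAC and 1.05, 0.982, 0.271, 0.458 and 0.689 TPM in Con, without overlap, and at 0.612, 1.12, 1.36, 0.858 and 0.452 TPM in NCAC, which overlapped CAC. The log2 fold change at 6 weeks was 0.80 ± 0.18 (SE; adjusted p = 0.00555) against Con and 0.65 ± 0.18 (SE; adjusted p = 0.0141) against NCAC (limma). At 4 weeks it was at 1.75, 1.55, 1.43, 2.48 and 1.36 TPM in CAC and 0.483, 0.614, 0.901, 0.758 and 0.718 TPM in Con, without overlap, with 0.67 ± 0.15 (SE; adjusted p = 0.0464), a call lost in 6 of 7 alternatives and in 12 of 15 fits without 1 library. The exons of Eif4ebp3 share bases on the same strand with the annotated gene AC115631.1. That gene has no row in the deposited values, so how reads from the shared bases were assigned is unknown. Ankhd1 was examined with it, for transcripts that run on from 1 gene into another. Ankhd1 was at 11.8 to 14.5 TPM in Con and 12.6 to 21.9 TPM in CAC at 6 weeks. At 8 weeks it was at 13.7 to 14.3 TPM in Con, 10.8 to 11.9 TPM in NCAC and 13.6 to 24.7 TPM in CAC. Whether reads of Ankhd1 add to the values of Eif4ebp3 was not tested.

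Eif4ebp2, the second abundant inhibitor (minus strand of chr10:61428491-61452661), passed against NCAC and not against Con, a contrast that was not itself tested. At 8 weeks CAC was at 44.4 TPM in the lowest, 81.7 in the median and 101 in the highest of 7 libraries. NCAC was at 45.5, 48.0, 43.8, 41.8 and 48.2 TPM and Con at 60.5, 56.7, 65.1, 59.1 and 69.6 TPM. All NCAC libraries lay below all Con libraries, and CAC replicate 6, at the lowest CAC value, lay among the NCAC libraries. The log2 fold change was 0.75 ± 0.15 (SE; adjusted p = 0.00366) for CAC against NCAC, 0.30 ± 0.15 (SE; adjusted p = 0.208) for CAC against Con and -0.44 ± 0.16 (SE; adjusted p = 0.516) for NCAC against Con (limma), so only the first passed. At 6 weeks NCAC was at 76.3, 85.6, 95.7, 57.9 and 36.3 TPM, Con at 94.9, 80.7, 83.9, 77.0 and 78.0 TPM and CAC at 138, 101, 99.8, 134 and 90.9 TPM. The groups overlapped, and the log2 fold change was 0.73 ± 0.20 (SE; adjusted p = 0.0130) against NCAC and 0.42 ± 0.20 (SE; adjusted p = 0.121) against Con. Eif4enif1, which carries eIF4E into the nucleus, passed against NCAC at 6 weeks (0.33 ± 0.10, SE; adjusted p = 0.0214) and 8 weeks (0.37 ± 0.09, SE; adjusted p = 0.00862, limma), and neither call held on rescaled values.

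Eif4e, the cap-binding protein that these inhibitors hold (plus strand of chr3:138526179-138559696), passed in no comparison between treatments on the scale as deposited. It was at 34.6, 35.7, 36.5, 35.3 and 36.7 TPM in Con and 30.1, 31.0, 36.9, 34.2 and 32.8 TPM in CAC at 6 weeks. The groups overlapped, and the log2 fold change of -0.12 ± 0.08 (SE; adjusted p = 0.262, limma) had a 95% interval of -0.28 to 0.05. On rescaled values Eif4e was called lower at 6 weeks, at -0.30 against Con (adjusted p = 0.0156) and -0.27 against NCAC (adjusted p = 0.0205, limma). At 8 weeks it was at 24.9 TPM in the lowest, 30.6 in the median and 41.5 in the highest of 7 libraries in CAC and 29.6, 32.0, 30.2, 31.2 and 28.6 TPM in Con, which overlapped, and the difference was 0.08 ± 0.12 (SE; adjusted p = 0.698) in log2. The ratio of Eif4ebp1 to Eif4e transcripts, which no rescaling of a library can move, was 2.80 ± 0.330 in Con and 6.66 ± 2.66 in CAC at 6 weeks (SD, n = 5 each), and ranged from 2.57 to 3.35 in Con and from 3.48 to 10.3 in CAC. At 8 weeks it ranged from 3.30 to 6.74 in Con and from 3.54 to 21.7 in CAC, and the groups overlapped. The ratio was chosen after its values were seen and is a description.

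**Figure D2:**
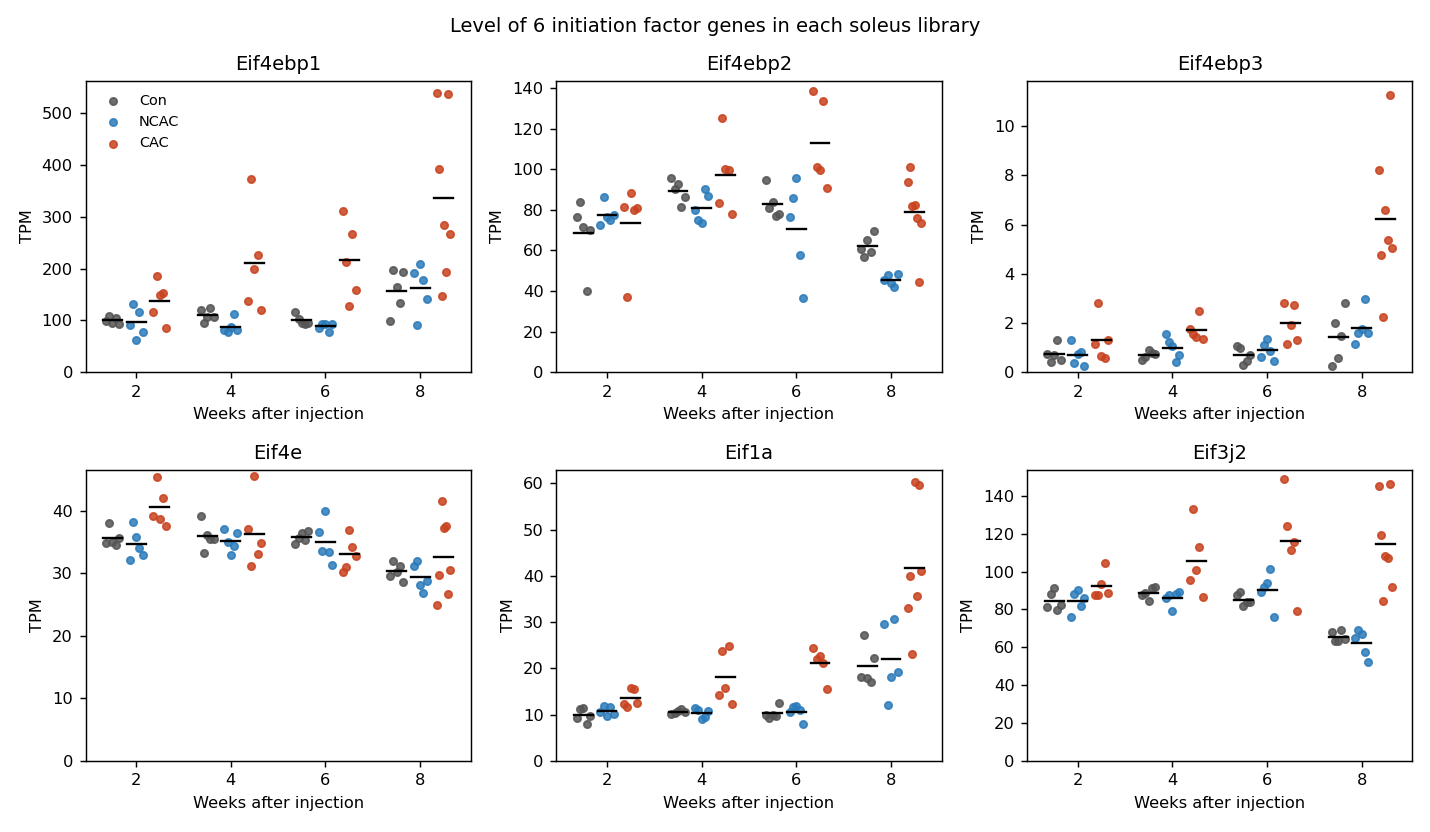
Points are the TPM values of single soleus libraries (vertical axes, linear and starting at 0) by weeks after injection, for Con (grey), NCAC (blue) and CAC (red), with a black bar at the group mean. Eif4ebp1, Eif4ebp3 and Eif1a were higher in CAC at 6 weeks than in every Con library, while Eif4e overlapped between the groups.

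Among the genes grouped here under start codon selection on the small subunit (Eif1, Eif1a, Eif1ax, Eif1b and, by its symbol only, Eif1ad), Eif1a stood apart. Eif1a, on chromosome 18, and its X-linked relative Eif1ax both encode eIF1A, which helps the subunit scan and recognise the start codon. At 6 weeks Eif1a was at 10.01, 9.19, 9.98, 9.67 and 12.4 TPM in Con and 10.6, 11.5, 11.9, 10.9 and 7.98 TPM in NCAC. In CAC it was at 24.4, 22.0, 22.8, 21.2 and 15.5 TPM. All 5 CAC libraries lay above all 10 others, and the log2 fold change was 0.97 ± 0.12 (SE; adjusted p = 6.06e-05) against Con and 0.93 ± 0.12 (SE; adjusted p = 6.84e-05) against NCAC (limma), with 0.80 and 0.75 on rescaled values.

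Eif1a was higher in CAC at 4 weeks, at 14.3, 23.8, 15.7, 24.8 and 12.2 TPM against 10.03, 10.2, 10.8, 11.3 and 10.5 TPM in Con. The groups did not overlap, and the log2 fold change was 0.68 ± 0.15 (SE; adjusted p = 0.0499, limma), a call that 6 of 7 alternatives and 13 of 15 fits without 1 library lost. Replicates 2 and 4, the high CAC libraries for Eif1a and Eif4ebp1, also had the highest macrophage marker sums of the week, 403 and 357 TPM. The remaining CAC libraries held 138 to 223 TPM and Con 141 to 225 TPM, and the part of these cells was not tested. Against NCAC at 4 weeks, where the libraries were at 11.4, 11.1, 9.10, 9.50 and 10.8 TPM, it was 0.71 ± 0.15 (SE; adjusted p = 0.0244), and this call ended when any of NCAC replicates 1 to 4, CAC replicate 2 or CAC replicate 4 was left out. At 8 weeks CAC was at 23.0 TPM in the lowest, 39.9 in the median and 60.3 in the highest of 7 libraries, Con at 18.1, 27.3, 17.9, 17.0 and 22.3 TPM and NCAC at 29.7, 12.2, 18.2, 30.7 and 19.1 TPM. The groups overlapped at their edges. The log2 fold change was 0.95 ± 0.24 (SE; adjusted p = 0.0215) against Con, lost without Con replicate 1, 3 or 4, and 0.91 ± 0.24 (SE; adjusted p = 0.0152) against NCAC (limma), with 0.71 (adjusted p = 0.0520) on rescaled values. At 2 weeks the CAC libraries, at 12.2, 11.6, 15.8, 15.6 and 12.4 TPM, also lay above the Con libraries, at 9.36, 11.1, 11.5, 8.02 and 9.69 TPM, and the difference of 0.41 ± 0.10 (SE; adjusted p = 0.290) did not pass.

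Eif1ax did not pass in any comparison between treatments. Its log2 fold change was 0.15 ± 0.08 (SE; adjusted p = 0.163) at 6 weeks and 0.21 ± 0.09 (SE; adjusted p = 0.148) at 8 weeks against Con (limma). Eif1a was 27.3% ± 2.10 of the summed TPM of the pair in Con and 40.8% ± 3.08 in CAC at 6 weeks (SD, n = 5 each), and 40.3% ± 2.71 in Con (SD, n = 5) and 53.3% ± 7.10 in CAC (SD, n = 7) at 8 weeks. At 6 weeks the share ranged from 25.4 to 30.8% in Con and from 36.9 to 43.9% in CAC, without overlap, and at 8 weeks from 37.8 to 44.1% in Con and from 41.4 to 63.2% in CAC, which overlapped. The longest coding transcripts of the pair are 84.4% identical over 461 aligned bases, so some reads could be assigned to either. Eif1 rose at 6 weeks against Con (0.31 ± 0.11, SE; adjusted p = 0.0383) and NCAC (0.32 ± 0.11, SE; adjusted p = 0.0294, limma), in 4 of 5 CAC libraries above the Con mean, and neither call held on rescaled values. Eif1ad passed against NCAC at 6 weeks alone (0.26 ± 0.08, SE; adjusted p = 0.0195), and Eif1b in none.

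**Figure D3:**
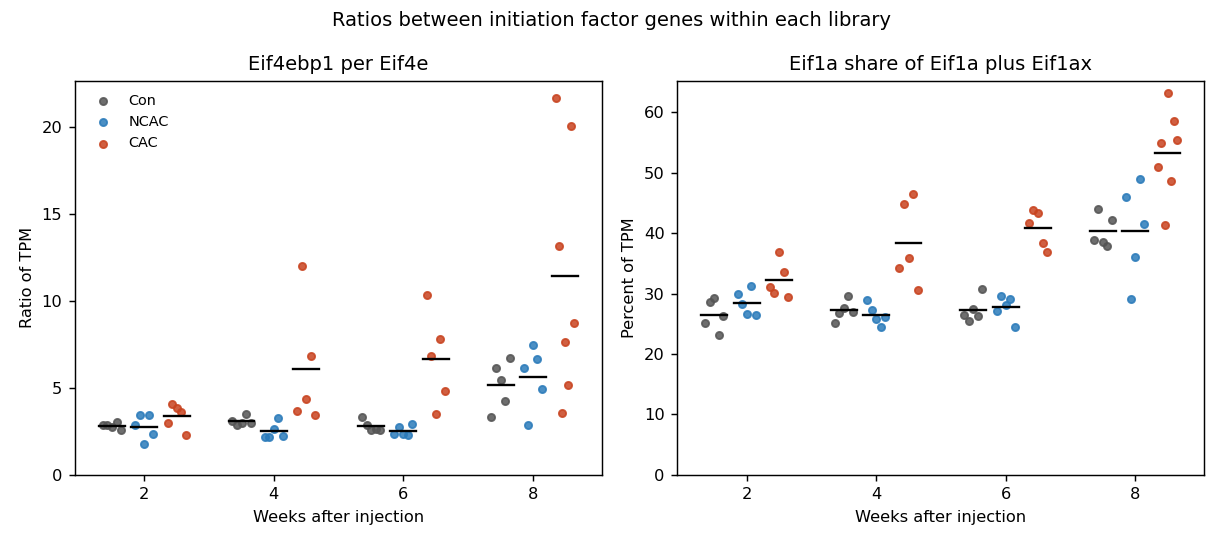
Points are single libraries (Con grey, NCAC blue, CAC red; black bar, group mean) by weeks after injection. The left panel shows the ratio of Eif4ebp1 to Eif4e TPM and the right panel Eif1a as a percentage of Eif1a plus Eif1ax TPM. At 6 weeks the Eif1a share was 25.4 to 30.8% in Con and 36.9 to 43.9% in CAC, and the mock and NCAC libraries of week 8 were above those of week 6 on average in both panels.

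eIF2 is the factor that delivers the initiator tRNA. Of its 3 tested subunit genes and the related Eif2a and Eif2d, 0 of 5 passed against Con at 4, 6 or 8 weeks (limma). Over all genes 0.902%, 23.5% and 6.31% were called higher at these weeks, and 0.133%, 3.87% and 4.26% lower. At an unadjusted p under 0.05 (limma) there were 0, 2 and 2 of the 5, beside 2709, 5671 and 3617 of all 13529 genes. Eif2s1 encodes the alpha subunit that the stress kinases phosphorylate (plus strand of chr12:78861819-78887010). It was at 22.0, 22.0, 22.2, 22.9 and 24.97 TPM in Con and 33.6, 27.0, 25.1, 27.4 and 21.2 TPM in CAC at 6 weeks. The groups overlapped, and the log2 difference was 0.21 ± 0.11 (SE; adjusted p = 0.135), with a 95% interval of -0.01 to 0.44. At 8 weeks CAC was at 29.8 TPM in the lowest, 34.0 in the median and 45.2 in the highest of 7 libraries, NCAC at 29.5, 25.1, 24.0, 28.9 and 27.4 TPM and Con at 29.4, 31.6, 28.3, 27.7 and 29.6 TPM. The CAC libraries lay above all NCAC libraries and overlapped those of Con. The log2 fold change was 0.37 ± 0.10 (SE; adjusted p = 0.0155) against NCAC, with 0.18 (adjusted p = 0.303) on rescaled values, and 0.25 ± 0.10 (SE; adjusted p = 0.113) against Con (limma). Eif2s2, the beta subunit, passed against NCAC at 6 weeks (0.28 ± 0.09, SE; adjusted p = 0.0287) and not on rescaled values.

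eIF2B reloads eIF2 with GTP and is the target of inhibition by phosphorylated eIF2. Of its 5 subunit genes, Eif2b5, which encodes the catalytic epsilon subunit, passed most often: the log2 fold change was 0.37 ± 0.11 (SE; adjusted p = 0.0262) at 6 weeks and 0.31 ± 0.09 (SE; adjusted p = 0.0420) at 8 weeks against Con, and 0.40 ± 0.11 (SE; adjusted p = 0.0150) and 0.47 ± 0.09 (SE; adjusted p = 0.00292) against NCAC (limma). Eif2b2 passed at 8 weeks against Con (0.30 ± 0.09, SE; adjusted p = 0.0449) and against NCAC (0.48 ± 0.09, SE; adjusted p = 0.00261). In all, 1 of 5 subunits passed against Con at 6 weeks and 2 at 8 weeks, beside 23.5% and 6.31% of all genes called higher, and 3 against NCAC at each of these weeks, beside 27.8% and 19.3%. None of these calls held on rescaled values. Without Con replicate 2 or 3 or CAC replicate 1 or 4 the 6 week call of Eif2b5 against Con was lost.

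The 4 eIF2 kinases respond to different stresses, and are given one by one. Eif2ak1 (HRI) passed at 6 weeks against Con (0.33 ± 0.09, SE; adjusted p = 0.0189) and NCAC (0.34 ± 0.09, SE; adjusted p = 0.0137) and at 8 weeks against NCAC (0.38 ± 0.08, SE; adjusted p = 0.00624, limma). Eif2ak3 (PERK, the kinase of the endoplasmic reticulum) passed narrowly at 6 weeks (0.28 ± 0.10, SE; adjusted p = 0.0461 against Con), a call lost in 6 of 8 alternatives and in 10 of 15 fits without 1 library. At 8 weeks its log2 fold change against Con was -0.30 ± 0.18 (SE; adjusted p = 0.286). Eif2ak4 (GCN2) was at 3.92 TPM in the lowest, 4.49 in the median and 6.32 in the highest of 7 libraries in CAC and 3.51, 3.06, 3.17, 2.92 and 3.65 TPM in NCAC at 8 weeks. These did not overlap, and the log2 fold change was 0.46 ± 0.10 (SE; adjusted p = 0.00648) against NCAC (limma), one of the 4 calls of that comparison that held on rescaled values (0.29, adjusted p = 0.0340). Against Con at 8 weeks Eif2ak4 was at 0.24 ± 0.10 (SE; adjusted p = 0.137). Eif2ak2 (PKR, which binds double-stranded RNA) passed in no comparison between treatments.

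eIF3, the largest initiation factor, had the most calls of any role at 6 weeks. Of its 14 subunit genes 13 were called higher in CAC against Con, all but Eif3m, with log2 fold changes from 0.25 to 0.53 over the 14 and a median of 0.39. The background in this comparison was 23.5% of all genes. Eif3b, a scaffold subunit, was at 63.3 ± 2.48 TPM in Con and 93.5 ± 21.1 TPM in CAC (SD, n = 5 each), without overlap, with 0.53 ± 0.12 (SE; adjusted p = 0.00513). Eif3c was at 122 ± 2.00 TPM and 172 ± 36.0 TPM (SD, n = 5 each), also without overlap, with 0.47 ± 0.11 (SE; adjusted p = 0.00760, limma). These are the 2 of the 13 that passed on rescaled values too, at 0.34 and 0.28. Eif3h (0.41 ± 0.10, SE; adjusted p = 0.00968) and Eif3k (0.34 ± 0.09, SE; adjusted p = 0.0105) had the next smallest p. Eif3f and Eif3l, whose start sites are printed above, were at 0.32 ± 0.10 and 0.40 ± 0.10 (SE).

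Against NCAC, 6 eIF3 genes were called higher at 4 weeks, 11 at 6 weeks and 6 at 8 weeks, beside 5.11%, 27.8% and 19.3% of all genes. The smallest p at 4 weeks belonged to Eif3f (0.38 ± 0.08, SE; adjusted p = 0.0204, limma), whose call was lost without NCAC replicate 1 or CAC replicate 4. Eif3a, Eif3b, Eif3c, Eif3d, Eif3g and Eif3j2 passed at 8 weeks. On rescaled values Eif3b, Eif3c, Eif3h and Eif3l kept their calls at 6 weeks and Eif3j2 at 8 weeks. Against Con at 8 weeks 2 of 14 passed, Eif3j1 and Eif3j2, beside 6.31% of all genes, with log2 fold changes of 0.20 to 0.77 over the 14.

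Eif3j2 and Eif3j1 need to be read together. Both encode eIF3j, a loosely bound subunit. The transcript of Eif3j2, on chromosome 18, is 2379 bases long and 99.4% identical to that of Eif3j1 over its whole length, so the way the authors' tool shared reads between them is uncertain. Eif3j2 was at 84.7 TPM in the lowest, 108 in the median and 146 in the highest of 7 libraries in CAC at 8 weeks, at 68.1, 63.2, 63.6, 69.1 and 64.4 TPM in Con and at 64.7, 69.3, 67.1, 57.8 and 52.0 TPM in NCAC. Every CAC library lay above every other library of that week. The log2 fold change was 0.77 ± 0.13 (SE; adjusted p = 0.00277) against Con and 0.85 ± 0.13 (SE; adjusted p = 0.000838) against NCAC (limma), and both calls held in all 8 alternatives and all 17 fits without 1 library. At 6 weeks CAC was at 149, 124, 112, 116 and 79.1 TPM and Con at 87.6, 89.2, 81.7, 83.8 and 83.8 TPM, with CAC replicate 5 below all Con libraries, and the log2 fold change of 0.41 ± 0.13 (SE; adjusted p = 0.0247) was lost without Con replicate 3 or CAC replicate 1, 2 or 4. The sum of the pair ranged from 68.8 to 75.9 TPM in Con and from 91.2 to 158 TPM in CAC at 8 weeks, also without overlap. TPM is corrected for length, and the longest coding transcript of Eif3j1 has 5413 bases. A read therefore weighs differently in the 2 genes, and this sum too can depend on the split.

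The genes of eIF4F and its helpers were called in part. At 6 weeks 3 of 11 rose against Con, near the 23.5% of all genes called higher: Eif4g2, a relative of eIF4G that does not bind eIF4E (0.42 ± 0.10, SE; adjusted p = 0.00645), the helicase gene Eif4a1 (0.46 ± 0.13, SE; adjusted p = 0.0163) and its cofactor Eif4b (0.37 ± 0.13, SE; adjusted p = 0.0443, limma). Only Eif4g2 of these held on rescaled values (0.23, adjusted p = 0.0278). The call of Eif4b was lost in 9 of 15 fits without 1 library. At 8 weeks the second helicase gene, Eif4a2, passed against Con (0.40 ± 0.10, SE; adjusted p = 0.0196, lost without Con replicate 1 or 4) and held on rescaled values at 0.37, while Eif4a1 was at 0.28 ± 0.17 (SE; adjusted p = 0.301, limma). At 6 weeks Eif4a2 was at 0.11 ± 0.11 (SE; adjusted p = 0.436) against Con. Against NCAC at 8 weeks 5 of 11 were called higher, beside 19.3% of all genes, with Eif4g3 at 0.69 ± 0.14 (SE; adjusted p = 0.00390) and Eif4b at 0.56 ± 0.14 (SE; adjusted p = 0.0124). Eif4g1, the main scaffold, passed in no comparison between treatments, with 0.14 ± 0.09 (SE; adjusted p = 0.225) against Con at 6 weeks.

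Of the late-acting factors, Eif5b, whose product joins the subunits, passed at 6 weeks (0.37 ± 0.10, SE; adjusted p = 0.0124) and 8 weeks (0.37 ± 0.11, SE; adjusted p = 0.0343) against Con and at 4, 6 and 8 weeks against NCAC (limma), and none of these calls held on rescaled values. Eif5 passed at 8 weeks against Con (0.51 ± 0.14, SE; adjusted p = 0.0305). Eif5a, an abundant factor of elongation, passed in none, with 0.09 ± 0.08 (SE; adjusted p = 0.417) against Con at 6 weeks, while its rarer relative Eif5a2 rose at 6 weeks (0.34 ± 0.09, SE; adjusted p = 0.0144). Eif6, which keeps the large subunit from joining too early (minus strand of chr2:155819832-155826925), was at 19.8, 17.0, 19.0, 21.4 and 18.2 TPM in Con and 29.7, 22.9, 22.7, 26.2 and 20.3 TPM in CAC at 6 weeks. The groups overlapped by 1 CAC library, and the log2 fold change was 0.33 ± 0.10 (SE; adjusted p = 0.0266) against Con and 0.28 ± 0.10 (SE; adjusted p = 0.0440) against NCAC (limma). On rescaled values it was 0.15 and 0.10, and neither passed. The call against Con was lost without Con replicate 2, 3 or 5 or CAC replicate 1 or 4. At 8 weeks Eif6 was at 27.6 TPM in the lowest, 31.6 in the median and 42.6 in the highest of 7 libraries in CAC and 26.8, 33.4, 29.0, 23.5 and 31.0 TPM in Con, with overlap and 0.20 ± 0.12 (SE; adjusted p = 0.299).

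**Figure D4:**
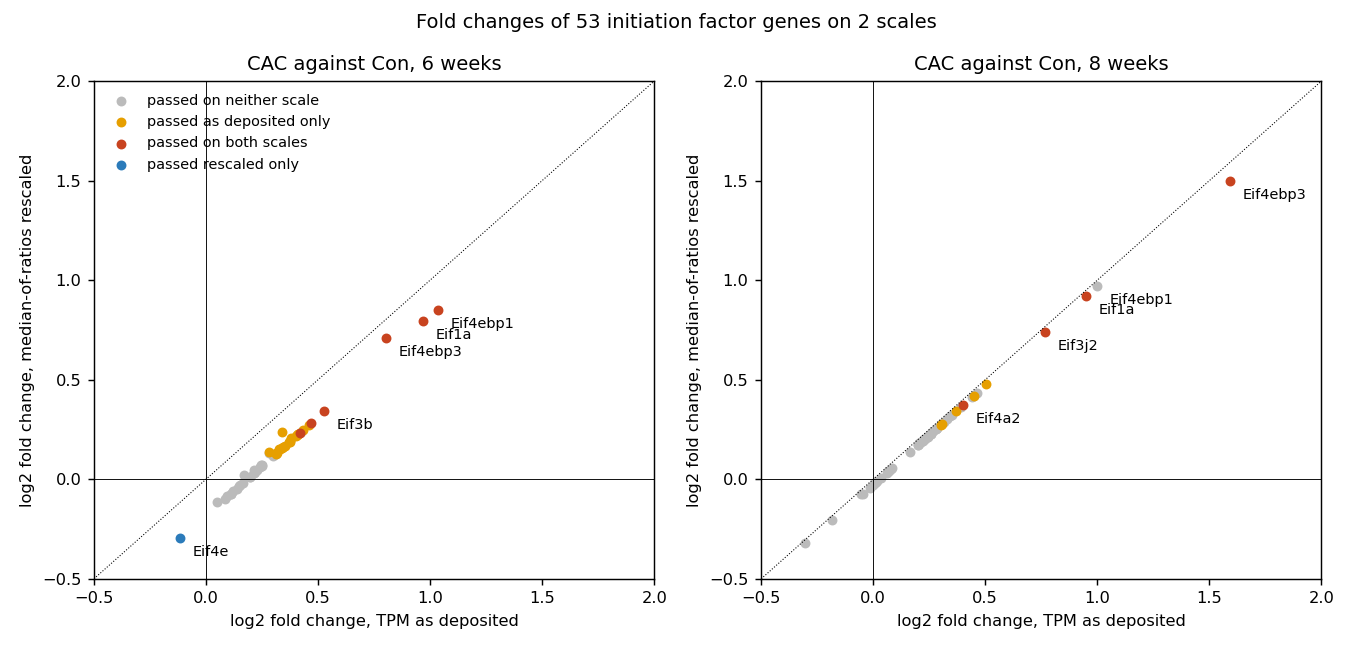
Each point is 1 of the 53 tested members, with its log2 fold change in CAC against Con on TPM as deposited (horizontal) and after median-of-ratios rescaling (vertical), at 6 weeks (left) and 8 weeks (right). The dotted line marks equal values. At 6 weeks all 53 points lie below the line and 6 members passed higher on both scales, with Eif4e called lower on the rescaled one, while at 8 weeks the points lie close to the line and 4 passed on both.

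The size of the differences varied between CAC libraries. The median difference of the 53 members from the Con mean of the week ranged from 0.04 to 0.53 (log2) over the 5 CAC libraries at 6 weeks, from -0.01 to 0.34 at 4 weeks and from 0.01 to 0.41 over the 7 at 8 weeks. Over all tested genes the same libraries ranged from -0.02 to 0.27, from -0.03 to 0.16 and from -0.20 to 0.15. After rescaling, the members' medians ranged from 0.03 to 0.25 at 6 weeks and from -0.03 to 0.46 at 8 weeks. The low end at 6 weeks was CAC replicate 5, and the counts without it are given above.

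**Figure D5:**
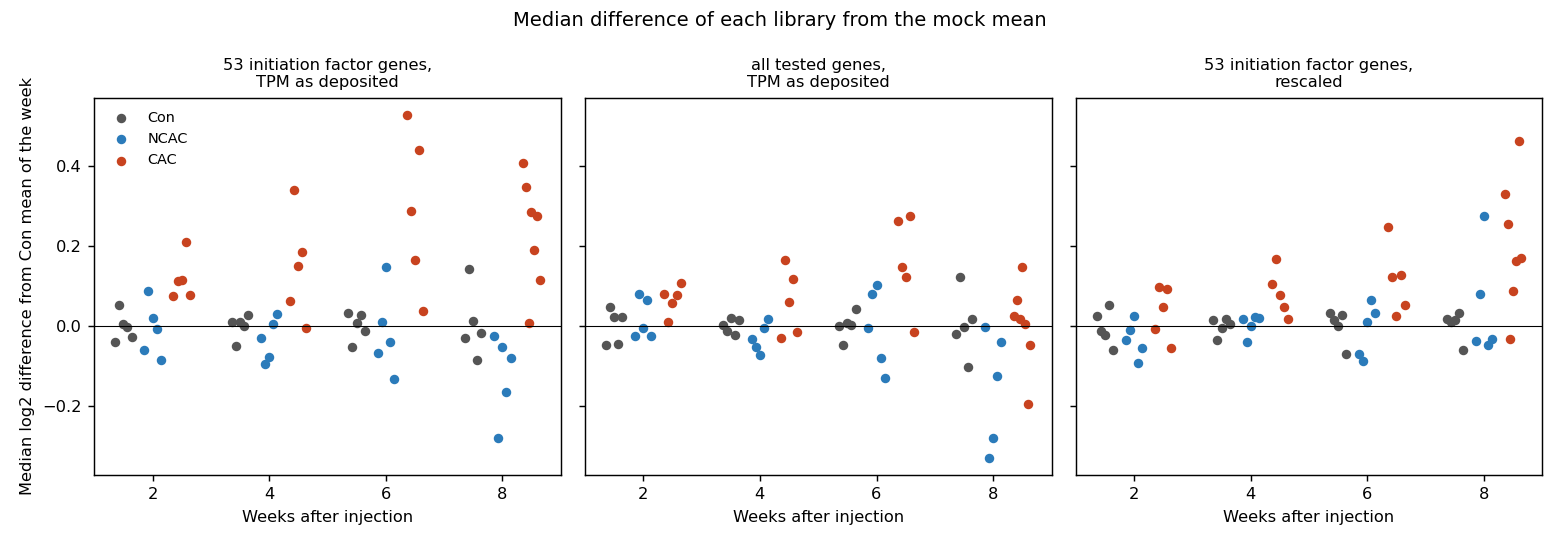
Each point is the median, in 1 library, of the log2 difference from the Con mean of the same week, over the 53 members as deposited (left), all 13529 tested genes (middle) and the 53 members after rescaling (right), by weeks after injection. CAC libraries at 6 weeks span 0.04 to 0.53 on the left and 0.03 to 0.25 on the right.

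The mock mice of 8 weeks were compared next with those of 6 weeks. Each week has its own libraries, so time cannot be told apart from anything else that differed between the weeks, such as handling. A rise or fall below is a difference between these 2 sets of libraries. In Con at 8 against 6 weeks 22 members were called higher and 9 lower (limma), beside 54.1% of all genes higher and 9.65% lower, with a median of 0.13 over the members and 0.29 over all genes. On rescaled values the split turned to 7 higher and 30 lower, beside 31.8% of all genes in each direction, with a members' median of -0.25 beside -0.02 over all genes. Eif2ak3 rose from 3.08 ± 0.441 TPM to 7.62 ± 2.03 TPM (SD, n = 5 each), by 1.06 ± 0.14 (SE; adjusted p = 7.24e-05), and Eif2ak2 by 0.83 ± 0.14 (SE; adjusted p = 0.000338, limma). Eif1a rose by 0.92 ± 0.13 (SE; adjusted p = 0.000110). These 3, with Eif5a2, Eif6, Eif3k and Eif4a3, were the members called higher on both scales. Eif4g1 fell by 0.55 (adjusted p = 4.22e-05), Eif5b by 0.49 (adjusted p = 9.20e-05), Eif4ebp2 by 0.41 (adjusted p = 0.00101) and Eif3j2 by 0.37 (adjusted p = 0.000208), and all 4 were lower on both scales (limma). Of the 4E-BPs and eIF4E binding proteins, 4 genes, 1 was called higher and 1 lower as deposited. The ratio of Eif4ebp1 to Eif4e was 2.80 ± 0.330 in Con at 6 weeks and 5.18 ± 1.40 at 8 weeks (SD, n = 5 each). It ranged from 2.57 to 3.35 and from 3.30 to 6.74, with overlap.

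Markers of other cell types moved with the week in the same comparison. All 13 macrophage markers, 10 of 13 adipocyte markers, 11 of 12 markers of fibro-adipogenic progenitors and all 6 tested neutrophil markers were called higher in Con at 8 against 6 weeks, and 4 of 12 muscle fibre markers lower (limma). Of the neutrophil list, 14 genes long, only these 6 were high enough to be tested, in this and the other comparisons. The summed progenitor markers were 1251 to 1654 TPM in Con at 6 weeks and 6004 to 13204 TPM at 8 weeks, and the muscle fibre markers 66806 to 82599 and 48548 to 69376 TPM. Their part in the members' changes was not tested. In CAC against Con at 6 weeks 7 of 13 macrophage, 9 of 13 adipocyte and 5 of 6 tested neutrophil markers were called higher and 4 of 12 tenocyte markers lower. The macrophage sum was 140.0 to 172 TPM in Con and 234 to 298 TPM in CAC, without overlap, and the neutrophil sum 5.63 to 15.1 and 21.5 to 50.1 TPM. At 8 weeks no macrophage or adipocyte marker passed against Con, the macrophage sum was 1247 to 2432 TPM in Con and 1069.9 to 2883 TPM in CAC, and 2 of 6 neutrophil markers were higher, and 6 of 12 tenocyte markers and 2 of 12 muscle fibre markers, the slow fibre genes Myl2 and Tnni1, lower. The part of these cells in the differences between CAC and Con was not tested. The granule genes Camp and Mpo were at 0 in all Con libraries at 2 weeks, and Mpo in all NCAC and CAC libraries at 4 weeks.

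Whether the CAC difference changed over time was tested directly. For the CAC minus Con difference at 6 minus 2 weeks 0 of 53 members passed (6 at an unadjusted p under 0.05, limma), beside 1.94% of all genes higher and 0.562% lower, and for 8 minus 6 weeks 0 passed (1 unadjusted), beside 0.0148% higher and 0.177% lower. In the first, leaving out CAC replicate 5 of week 6 gave 4 and leaving out CAC replicate 3 gave 1. Sample quality weights called 5 members in the first (4 higher, 1 lower) beside 829 of all genes, and 0 in the second beside 251.

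The pathways around the initiation factors were read from 3 lists, on the scale as deposited only. Their genes were not examined on rescaled values or with a library left out, settings under which many member calls were lost. Of 21 genes of the mTORC1 and 4E-BP kinase pathway, inhibitors and kinases of eIF4E included, 9 rose and 1 fell in CAC against Con at 6 weeks (limma). Over all genes these shares were 23.5% and 3.87%. Mknk2, a kinase of eIF4E, was at 1.03 ± 0.15 (SE; adjusted p = 0.000162), Ddit4l, an inhibitor of mTORC1, at -1.37 ± 0.23 (SE; adjusted p = 0.000735), Mtor at 0.60 ± 0.12 (SE; adjusted p = 0.00303) and Rps6, the ribosomal target of the pathway, at 0.46 ± 0.11 (SE; adjusted p = 0.00921). Inhibitors of the pathway were also among the 9 that rose: Ddit4 at 1.38 ± 0.36 (SE; adjusted p = 0.0113), Sesn1 at 1.01 ± 0.30 (SE; adjusted p = 0.0215), Deptor at 0.42 ± 0.15 (SE; adjusted p = 0.0492) and Tsc1 at 0.38 ± 0.13 (SE; adjusted p = 0.0380, limma), named after their values were seen. At 8 weeks 2 rose and 0 fell, beside 6.31% of all genes higher and 4.26% lower: Ddit4, which stress induces, at 3.00 ± 0.51 (SE; adjusted p = 0.00276), and Mknk2 at 0.86 ± 0.19 (SE; adjusted p = 0.00960). Of 20 tested genes of the response to eIF2 phosphorylation, 7 rose and 1 fell at 6 weeks, beside the same shares of all genes, led by the amino acid synthesis genes Asns (1.12 ± 0.11, SE; adjusted p = 5.21e-06) and Psat1 (0.85 ± 0.19, SE; adjusted p = 0.00502), and the faller was the transcription factor Atf5 (-0.38 ± 0.09, SE; adjusted p = 0.00878). At 8 weeks 0 rose and 2 fell, beside 6.31% and 4.26% of all genes, Ddit3 (-0.91 ± 0.16, SE; adjusted p = 0.00341), a stress-induced transcription factor, and Atf5 (-0.88 ± 0.19, SE; adjusted p = 0.00923, limma). Against NCAC at 8 weeks 4 of these 20 were called higher and 2 lower, and 8 of the 21 mTORC1 pathway genes higher and 0 lower (limma). Over all genes 19.3% were higher and 2.68% lower in that comparison.

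Of 23 genes of elongation, termination and poly(A) binding, 9 rose and 0 fell against Con at 6 weeks and 4 rose at 8 weeks, beside 23.5% and 6.31% of all genes called higher. Against NCAC at 8 weeks 7 were called higher and 0 lower (limma), beside 19.3% and 2.68% of all genes. At 6 weeks the elongation factor gene Eef1a1 was at 0.84 ± 0.12 (SE; adjusted p = 0.000131), the poly(A)-binding protein gene Pabpc1 at 0.54 ± 0.09 (SE; adjusted p = 0.000827), Eef1b2 at 0.40 ± 0.09 (SE; adjusted p = 0.00572) and Eef2 at 0.56 ± 0.13 (SE; adjusted p = 0.00601, limma). At 8 weeks the release factor gene Etf1 was at 0.49 ± 0.10 (SE; adjusted p = 0.00696) and the helicase gene Ddx3x at 0.62 ± 0.14 (SE; adjusted p = 0.0131). In Con at 8 against 6 weeks Eef1a1 rose by 2.27 ± 0.18 (SE; adjusted p = 3.09e-06) and Pabpc1 by 1.31 ± 0.14 (SE; adjusted p = 2.20e-05). The lists were chosen with earlier results of these data known, so their counts are no independent evidence of a direction.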

How the data were processed

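The deposited table gives TPM (transcript levels scaled to a fixed total per library) for 47643 genes in 62 soleus RNA-seq libraries. The authors aligned reads to mm10, per the submitters' processing notes, with the aligner and quantifier not given in the sources used here. No 2 libraries held identical values. Groups were taken from the labels. Log2(TPM + 1) values of the 13529 genes with at least 1 TPM in at least 5 libraries were fitted with limma 3.58.1 (R 4.3.3, trend) within each week over its 3 groups, without a replicate block, and p-values were adjusted over all tested genes by Benjamini and Hochberg, with a threshold of 0.05. Con at 8 and 6 weeks were fitted as 10 libraries, and changes of the CAC difference over time as 4 groups. A fold change on this scale understates the change of low genes. Depth is unknown from TPM.

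Alternatives were a pseudocount of 0.1, no filter, median-of-ratios rescaling, a fit of all 62 libraries, the compared groups alone, a replicate block, sample quality weights, omission of the libraries in which Myh4 reached 500 TPM, and leaving out each library in turn. The script was tested on simulated data. Transcripts were compared with blastn 2.17.0 and tables made with Python 3.11.15 (pandas 2.3.3, matplotlib 3.10.9).

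Values by library (lowest, median and highest for the 7 CAC libraries at 8 weeks) are given, in the comparisons described, for members that passed in CAC against Con or NCAC at 4, 6 or 8 weeks with a log2 fold change of at least 0.8, and for the 4E-BPs, Eif4e, Eif2s1 and Eif6. Up to 4 members of a role or list with the smallest adjusted p are named. Eif2ak4 and members named to complete a role were chosen after their values were seen. The members and lists were chosen with earlier results of these data known.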

Additional observations from a re-analysis of the deposited data

Results flagged for a closer look

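In each of the 12 groups the 8 members given in full were examined for a library far from the rest, 96 groups of values in all, and 4 held one. Chance flags about 1 in 20 such groups. In CAC at 2 weeks Eif4ebp2 was at 37.2 TPM in replicate 2, with the other libraries between 79.71 and 88.41 TPM. In NCAC at 6 weeks Eif6 was at 23.53 TPM in replicate 3, with the others between 18.36 and 19.15 TPM. In NCAC at 8 weeks Eif6 was at 20.88 TPM in replicate 2, with the others between 27.22 and 28.81 TPM. In Con at 6 weeks Eif1a was at 12.41 TPM in replicate 5, with the others between 9.186 and 10.01 TPM. The calls of Eif1a at 6 weeks held without that library.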

How the results depend on the processing

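Counts of members called moved with the settings as follows, with the number of all genes called in brackets. Rescaling gave 5 (493) in CAC against NCAC at 4 weeks, 7 (3038) against Con and 12 (3817) against NCAC at 6 weeks. At 8 weeks it gave 4 (1710) against Con and 4 (1483) against NCAC. The fit of all 62 libraries gave 0 (84) against Con and 2 (200) against NCAC at 4 weeks. At 8 weeks that fit gave 30 (4206) and 40 (5837), and 1 (175) in NCAC against Con. The compared groups alone gave 0 (21) and 0 (27) at 4 weeks and 17 (3003) against NCAC at 6 weeks. A pseudocount of 0.1 gave 0 (117) against Con at 4 weeks, and no filter gave 0 (63) against Con and 3 (280) against NCAC. Quality weights gave 0 (78) and 5 (402) at 4 weeks and 40 (5267) against Con at 6 weeks. At 8 weeks they gave 26 (3384) against Con and 7 (2284) in NCAC against Con. In the change of the CAC difference from 2 to 6 weeks they gave 5 (829). With a replicate block the counts were 0 (68) against Con and 3 (208) against NCAC at 4 weeks and 5 (920) against Con at 8 weeks. The replicate numbers did not pair the libraries: correlations of same-numbered libraries ran from -0.666 to 0.477, and 15 of 60 pairs were over 0.1. The causes were not tested.

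Leaving out 1 library at a time gave 0 to 2 in CAC against NCAC at 2 weeks, 0 to 17 against Con and 0 to 27 against NCAC at 4 weeks, 12 to 42 and 17 to 39 at 6 weeks, 2 to 14 and 20 to 29 at 8 weeks, 30 to 34 in Con at 8 against 6 weeks, and 0 to 4 in the change from 2 to 6 weeks. For all counts with a library left out, here and above, the numbers of all genes called are not given. These ranges are therefore not a result about the members alone. In Con at 8 against 6 weeks rescaling turned the log2 fold change of Eif2ak4 to -0.077, Eif2s1 to -0.021, Eif3d to -0.11, Eif3e to -0.0090, Eif3i to -0.0037, Eif3l to -0.10, Eif4e2 to -0.17 and Eif4h to -0.064. Of the single-member values, 2320 kept direction and call, 541 kept direction and lost the call, and 8 reversed. TPM without depth sets no floor for Eif4ebp3 and Eif5a2, the lowest members.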
